A study of Mus musculus with 9 samples.

Results

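The 43 genes described here encode fibroblast growth factors (FGFs) and their receptors, ligands and receptors of the epidermal growth factor (EGF) family, and the inhibitors and transcription factors that act behind the ERK kinases. They were chosen by name, with no measured value in the rule but with earlier results of these data known. All 43 were found among the 54532 genes of the count table. Enamel organs were dissected from first molars of 9 male pups aged 12 days and their RNA was sequenced. Of these pups, 5 had been reared in cages with limited bedding and nesting from postnatal day 2 to 12, the model of early life adversity (ELA), and 4 were controls. Every pup, ELA and control, came from a Crh-IRES-Cre +/+ dam and an Ai14 tdTomato male on the C57BL/6 background and carried Crh-IRES-Cre and Ai14 tdTomato, in which Cre made from the Crh locus switches on a fluorescent reporter. Each pup gave 1 library, and mice are numbered within their group only to name them. Sample titles carry a number that is shared by ELA mice 1 and 2, by ELA mice 3 to 5, by control mice 1 and 2, and by control mice 3 and 4, and the labels do not say what it means or whether it stands for a litter.

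Library totals were 18056774 to 32110160 counts in ELA and 18683431 to 20831736 counts in control. Values are given as CPM, which are counts scaled to a common TMM-adjusted library size, or, where levels of different genes are set side by side, as FPKM, which are also divided by the deposited gene length. The tissue label was checked on 7 markers of secretory ameloblasts, the enamel-forming cells, which summed to 71910 to 131543 CPM in ELA and 52966 to 67425 CPM in control. Every ELA sum was thus above every control sum. The libraries also held other cells, since 12 markers of mesenchyme and fibroblasts summed to 12489 to 24053 CPM in ELA and 16312 to 31724 CPM in control. No marker of the 11 cell type lists was at 0 in every library, and fewer cells of a type and less RNA per cell cannot be told apart in bulk tissue. ELA mouse 4 stood apart, with 8 neuron markers summing to 656 CPM against 65.3 to 108 CPM in the other ELA mice and 60.8 to 89.5 CPM in control. In ELA mouse 2, 7 oral epithelium markers summed to 9725 CPM. That sum was 3890 to 5164 CPM in the other ELA mice and 4735 to 6902 CPM in control.

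FGFs and EGF family ligands bind receptor tyrosine kinases at the cell surface and switch on the RAS, RAF, MEK and ERK kinase chain. Active ERK drives transcription of ETS factors such as Etv4 and Etv5 and of its own inhibitors, the Sprouty and Spred proteins and the dual-specificity phosphatases, so levels of these genes are widely read as a record of recent signaling. In teeth, FGFs pass between epithelium and mesenchyme, and sustain the epithelial stem cells of the continuously growing mouse incisor.

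No member passed the test between ELA and control once p was adjusted over all genes. Of the 43 members, 37 had enough counts to be tested, and 0 passed an adjusted p of 0.05 in edgeR, where 0.0629% of the 15909 genes tested did (0.0377% higher and 0.0251% lower in ELA). The members' count was also 0 in DESeq2, which called 0.502% of all genes higher and 0.388% lower, and in limma-voom, which called 0.0566%. DESeq2 gave no p for Fgf9, Erbb4 and Etv1, so its counts leave these members out. Its shares are of the 15728 genes with a p. The lowest adjusted p of a member was 0.534 in edgeR. At an unadjusted p below 0.05, edgeR gave 2 of the 37 members (5.41%), against 6.44% of all genes, so the share lay near the background. The 2 were lower in ELA, as were 2.89% of all genes at that level, and 0 members were higher, against 3.56% of all genes. They were the ERK feedback inhibitors Spry1 and Dusp6. DESeq2, in which 7.02% of all genes were at that level, and limma-voom, in which 1007 of the 15909 genes were, gave 2 members each. Log2 fold changes, given as ELA over control throughout, were positive for 17 members and negative for 20, against 52.6% positive over all genes. Their median was -0.02, against 0.01 over all genes tested.

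The members varied widely from mouse to mouse. Their median coefficient of variation was 30.8% in ELA and 31.1% in control, above the 22.8% and 17.9% of all genes tested in ELA and in control. The 95% interval of the log2 fold change lay between -1 and 1 for 23 of the 37 tested members, so a 2-fold difference in either direction lay outside the interval of these 23 genes. In 0 of the 37 did the ELA mice lie wholly apart from the controls, against 2.68% of all genes.

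**Figure D1:**
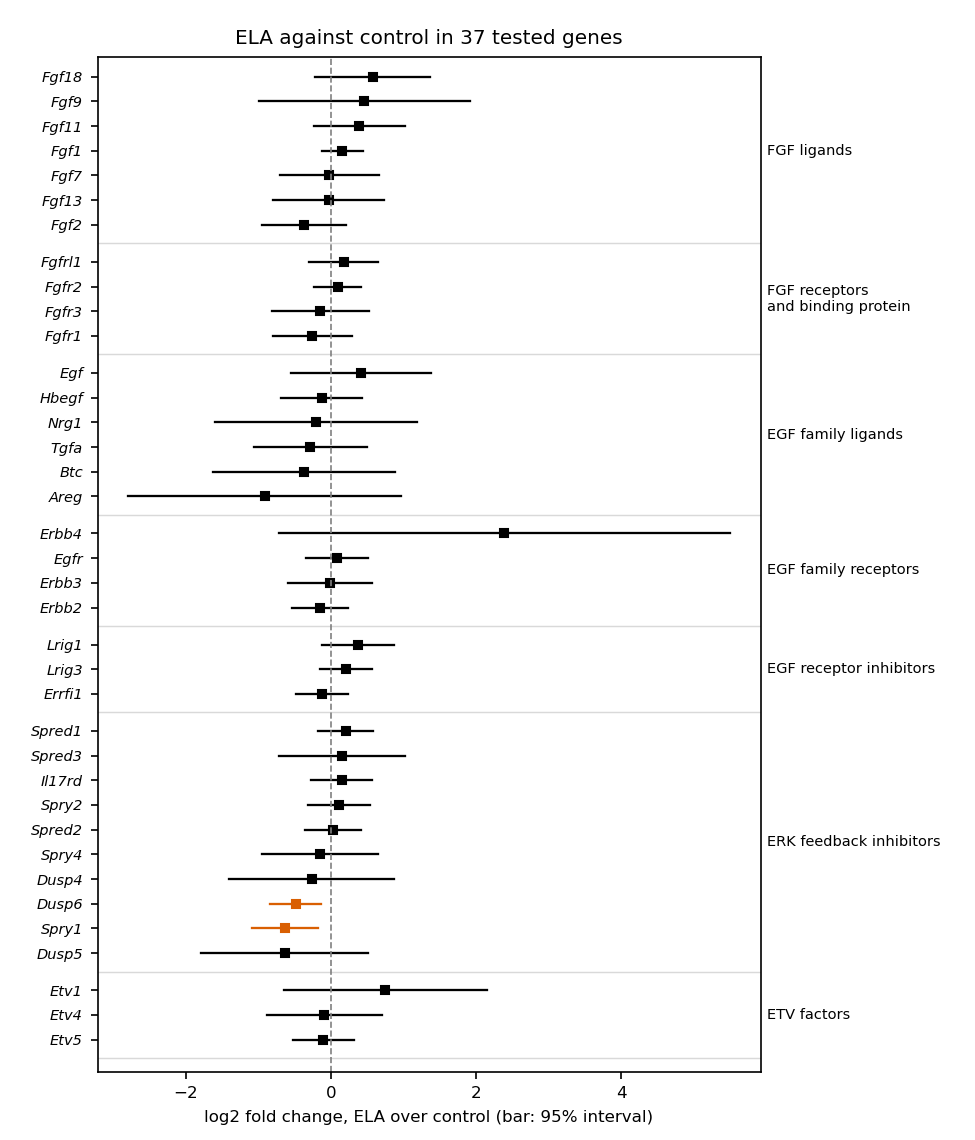
Log2 fold change of each of the 37 tested members, ELA over control, with its 95% interval from edgeR as a horizontal bar, grouped by role. Spry1 and Dusp6, in orange, were the genes whose interval excluded 0, and the interval of Erbb4 ran from -0.72 to 5.51.

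Among the 10 FGF ligands, Fgf1, a broad ligand that binds all FGF receptors, was by far the most abundant. It had 78.8, 66.8, 70.7, 77.7 and 59.1 CPM in the ELA mice, and 69.4, 56.4, 57.1 and 69.6 CPM in the controls. The ranges overlapped, and 3 of 5 ELA mice lay above the highest control. The means were 70.6 ± 8.11 CPM in ELA and 63.1 ± 7.39 CPM in control (SD, n = 5 and 4), and the log2 fold change of 0.16 (95% interval -0.11 to 0.44) had an adjusted p of 0.952 in edgeR. Per length, Fgf1 held 67.5% ± 5.73 of the summed FPKM of the 10 ligands in ELA and 68.6% ± 4.47 in control. Fgf1 lies on the opposite strand to Arhgap26 over its whole length, and with strandedness unknown the reads of such pairs cannot be told apart.

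Fgf18, a ligand of bone and cartilage growth, had 2.74, 2.36, 1.249, 1.31 and 2.57 CPM in the ELA mice and 1.80, 1.21, 0.852 and 1.63 CPM in the controls. ELA mice 1, 2 and 5 were above every control, and ELA mice 3 and 4 were among the controls. This gave a log2 fold change of 0.58 (95% interval -0.22 to 1.37), with an unadjusted p of 0.141 in edgeR. Fgf2, a ligand stored in the extracellular matrix that overlaps Nudt6 on the other strand, was 3.23 to 4.76 CPM in ELA and 3.17 to 6.96 CPM in control, and its log2 fold change was -0.37 (95% interval -0.95 to 0.21).

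The remaining tested ligands were low and their groups overlapped. Fgf11, which stays inside the cell and does not act through FGF receptors, ranged from 4.66 to 11.0 CPM in ELA and from 3.91 to 8.21 CPM in control, a log2 fold change of 0.39. Fgf13, of the same intracellular group, had a log2 fold change of -0.03. Fgf7, the mesenchymal ligand of the epithelial form of Fgfr2, averaged 1.93 ± 0.192 CPM in ELA and 1.96 ± 0.676 CPM in control (SD, n = 5 and 4). Fgf9, an epithelial ligand in the early tooth, was 0.438 to 0.877 CPM in 4 ELA mice and 4.77 CPM in ELA mouse 4, against 0.651 to 1.79 CPM in control.

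The other 3 ligands did not reach the count filter. Fgf3 and Fgf10, ligands made by the dental mesenchyme, had at most 7 and 10 counts in any library. Fgf20, an epithelial ligand of the early tooth germ, had 1 count in ELA mouse 4 and 0 in the other 8 libraries. A count of 0 allows up to 3 counts, which is 0.0934 to 0.166 CPM in these libraries, and the limit covers counting error only.

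**Figure D2:**
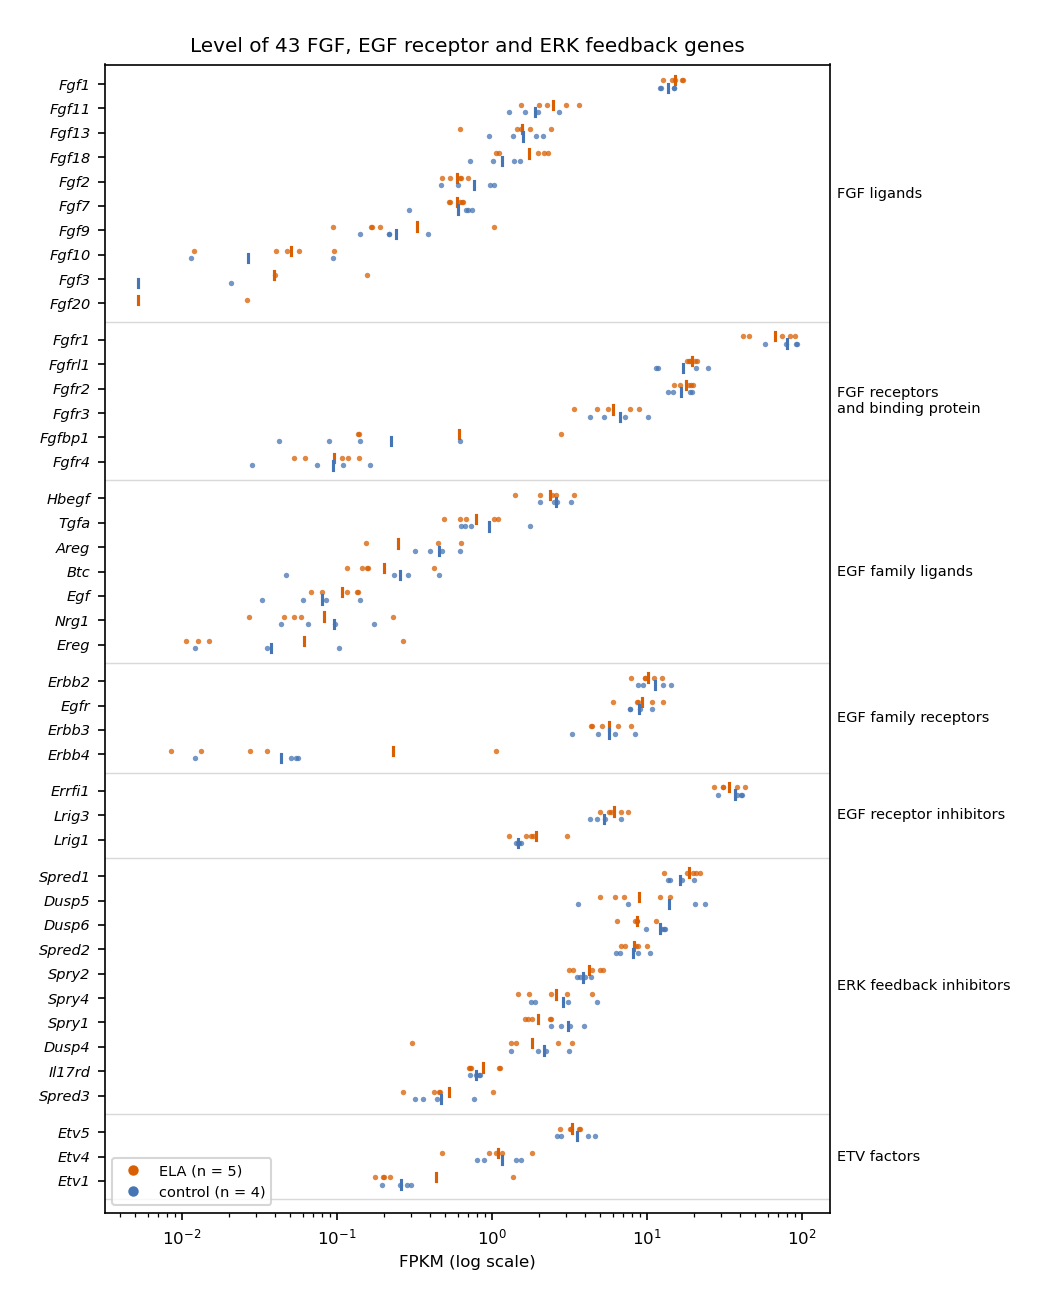
Level of each member in FPKM on a log axis, grouped by role, with 1 point per mouse (orange for ELA, blue for control) and values of 0 not drawn. Fgfr1 and Errfi1 stood highest, and Fgf3, Fgf10 and Fgf20 lay at the low end.

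Of the receptors, Fgfr1, which is expressed in mesenchyme and in ameloblasts, was the most abundant member, at 67.1 ± 22.3 FPKM in ELA and 80.1 ± 16.1 FPKM in control (SD, n = 5 and 4). By mouse it was 894, 448, 734, 411 and 826 CPM in ELA and 572, 910.1, 906 and 775 CPM in control. ELA mice 2 and 4 lay below every control and the other 3 ELA mice were among the controls. Its log2 fold change was -0.25 (95% interval -0.80 to 0.29), with an adjusted p of 0.985 in edgeR.

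Fgfr2, the receptor through which epithelia answer mesenchymal FGFs, averaged 184 ± 22.0 CPM in ELA and 172 ± 30.2 CPM in control (SD, n = 5 and 4). Its log2 fold change was 0.09 (95% interval -0.23 to 0.42). Its gene model in the table spans 2960900 bases and takes in 69 other genes, so its counts are uncertain. Fgfr3, known as a brake on bone growth, ranged from 24.2 to 63.1 CPM in ELA and 30.8 to 72.2 CPM in control.

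Fgfrl1, an FGF receptor without a kinase domain, spanned 50.2 to 58.8 CPM in ELA and spread over 31.6 to 68.5 CPM in control. All 5 ELA mice thus lay within the range of the controls, and the log2 fold change was 0.18 (95% interval -0.29 to 0.65). Fgfr1 made up 72.2% ± 8.71 of the summed FPKM of Fgfr1, Fgfr2, Fgfr3 and Fgfr4 in ELA and 76.8% ± 6.36 in control. Fgfr4 had 2 to 12 counts in a library and was not tested. Fgfbp1, a carrier that frees FGFs from heparan sulfate, had 115 counts in ELA mouse 2 and 0 to 29 in the other libraries and was not tested either. The part of oral epithelium, whose marker sum was highest in that mouse, was not tested.

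**Figure D3:**
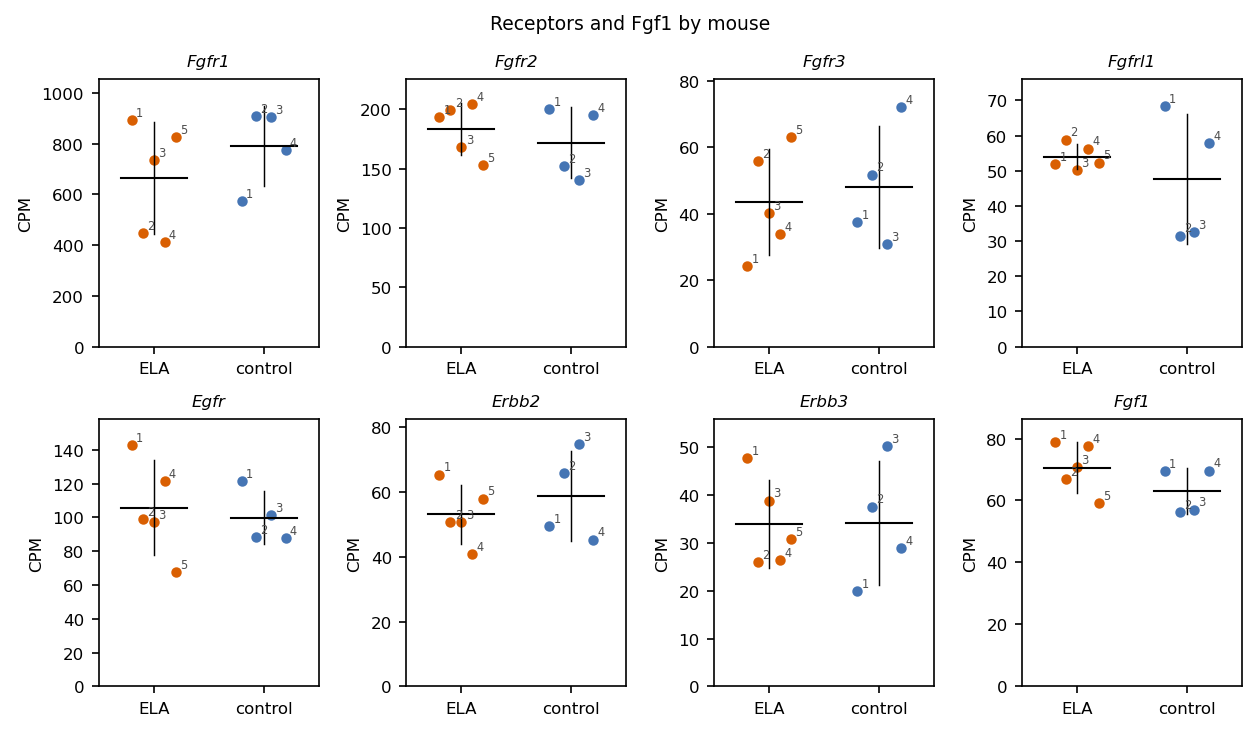
CPM of 7 receptor genes and of Fgf1 in each mouse, ELA in orange and control in blue, with mouse numbers, the group mean as a line and the SD as a bar. The groups overlapped in all 8 genes, and the ELA mice were close together for Fgfrl1 and far apart for Fgfr1.

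EGF family ligands were present at low levels. Hbegf, a heparin-binding ligand of Egfr and Erbb4, led them with 61.9% ± 14.4 of the summed FPKM of the 7 ligands in ELA and 58.2% ± 9.25 in control. By mouse Hbegf had 3.34, 5.81, 4.84, 8.06 and 6.16 CPM in ELA and 5.92, 6.22, 4.81 and 7.68 CPM in control. Its highest and its lowest value were both in ELA mice, and its log2 fold change was -0.12 (95% interval -0.68 to 0.44).

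Tgfa, the Egfr ligand of many epithelia, was 3.16 to 7.07 CPM in ELA and 4.10 to 11.5 CPM in control. Areg, also an Egfr ligand, had 0 counts in ELA mice 3 and 4 and was 0.186 to 0.768 CPM in the other 3, against 0.384 to 0.752 CPM in control. Its fitted log2 fold change of -0.91 had an interval from -2.80 to 0.97, wide enough to hold a difference in either direction. Egf had a log2 fold change of 0.42, Btc, betacellulin, of -0.37 and Nrg1, a ligand of Erbb3 and Erbb4, of -0.20, each with an interval that included 0. Ereg, epiregulin, had 20 counts in ELA mouse 2 and 0 to 8 elsewhere, below the filter.

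Egfr itself had 143, 99.2, 97.4, 121 and 67.8 CPM in ELA and 121, 88.3, 101 and 88.0 CPM in control. ELA mice held both the highest and the lowest value. For Egfr the log2 fold change was 0.08 (95% interval -0.35 to 0.51). Erbb2, the partner receptor with no ligand of its own, averaged 53.0 ± 9.15 CPM in ELA and 58.7 ± 13.8 CPM in control (SD, n = 5 and 4). Erbb3, a receptor with little kinase activity, averaged 33.9 ± 9.24 CPM in ELA and 34.2 ± 12.9 CPM in control (SD, n = 5 and 4). Their log2 fold changes were -0.15 for Erbb2 and -0.01 for Erbb3.

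The group of Errfi1, Lrig1 and Lrig3 had a median coefficient of variation of 19.1% in ELA and 15.4% in control, below that of the members as a whole. Errfi1, a cytosolic inhibitor of the Egfr kinase, was the second most abundant member per length, at 33.9 ± 6.47 FPKM in ELA and 36.98 ± 5.70 FPKM in control (SD, n = 5 and 4). It was 96.3 to 154 CPM in ELA and 103 to 146 CPM in control. Lrig3, a membrane protein of the same family as Lrig1, was 41.4 to 62.4 CPM in ELA and 35.7 to 56.3 CPM in control, a log2 fold change of 0.21 (95% interval -0.14 to 0.57).

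Lrig1, which promotes loss of EGF receptors from the membrane and marks epithelial stem cells in skin and gut, had 9.97, 9.27, 7.23, 16.99 and 10.3 CPM in ELA and 7.98, 8.20, 8.27 and 8.595 CPM in control. The controls lay within a narrow band, 4 of 5 ELA mice were above it and ELA mouse 3 was below it. Over all mice the log2 fold change was 0.38 (95% interval -0.11 to 0.88), with an adjusted p of 0.883 in edgeR. Without ELA mouse 4 it was 0.16.

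The 10 ERK feedback inhibitors gave the 2 members with the smallest p. Spry1, a Sprouty protein that dampens receptor signals to RAS, is on GRCm38 chr3:37639947-37644598. It had 4.77, 6.91, 7.02, 4.95 and 5.23 CPM in the ELA mice and 8.08, 9.21, 7.02 and 11.4 CPM in the controls. The lowest control, mouse 3, stood level with the highest ELA mouse, mouse 3, and the other 4 ELA mice were below every control. The means were 5.78 ± 1.101 CPM in ELA and 8.94 ± 1.89 CPM in control (SD, n = 5 and 4). The log2 fold change was -0.63 (SE 0.207, 95% interval -1.08 to -0.18), with an unadjusted p of 0.0103 and an adjusted p of 0.534 in edgeR, 0.225 in DESeq2 and 0.483 in limma-voom. By unadjusted p, Spry1 stood at place 308 among the genes tested. Gm42922, which overlaps its start on the other strand, averaged 0.0675 CPM in ELA and 0.0848 CPM in control.

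Dusp6, the cytoplasmic phosphatase that removes the activating phosphates of ERK, is on GRCm38 chr10:99263231-99267489. It had 35.6, 27.0, 19.98, 26.8 and 26.1 CPM in the ELA mice and 39.2, 40.7, 40.5 and 30.9 CPM in the controls. ELA mouse 1 lay among the controls and the other 4 ELA mice were below them all. The means were 27.1 ± 5.55 CPM in ELA and 37.8 ± 4.68 CPM in control (SD, n = 5 and 4). The log2 fold change was -0.48 (SE 0.162, 95% interval -0.84 to -0.13), with an unadjusted p of 0.0119 and an adjusted p of 0.564 in edgeR, 0.302 in DESeq2 and 0.504 in limma-voom.

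With any single mouse left out, the unadjusted p of edgeR stayed between 0.00731 and 0.0458 for Spry1 and between 0.00192 and 0.0341 for Dusp6. Without ELA mice 3 to 5, which share a title number, it was 0.0508 for Spry1 at a log2 fold change of -0.62, close to that over all mice, and 0.163 for Dusp6 at a log2 fold change of -0.28. Without control mice 1 and 2, which share another, it was 0.0975 for Dusp6 at -0.40. Markers of some cell types moved in the same direction as these genes, and those of others did not. Among tested markers, 7 of 8 for osteoblasts and 7 of 7 for osteoclasts had negative log2 fold changes. Positive were 7 of 7 for neurons, 4 of 5 for muscle and 6 of 8 for maturation-stage ameloblasts. All 7 neuron markers were highest in ELA mouse 4. The maturation-stage sums overlapped, at 24935 to 43335 CPM in ELA and 30241 to 41884 CPM in control. Their ELA mean was 0.956 of the control mean. For endothelium and for oral epithelium 3 of 7 were positive, and for stratum intermedium and papillary layer 3 of 6. Of 7 secretory ameloblast markers 6 were positive. Their sums were higher in ELA and did not overlap, at 71910 to 131543 CPM against 52966 to 67425 CPM in control. Of 9 markers of blood and leukocytes, all 9 had negative log2 fold changes, and their sum was 211 to 435 CPM in ELA against 459 to 892 CPM in control, with no overlap. Of the 12 mesenchyme and fibroblast markers 11 were negative, and none of the 9 or the 12 was at 0 in every library. The part of these cells in the Spry1 and Dusp6 values was not tested.

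**Figure D4:**
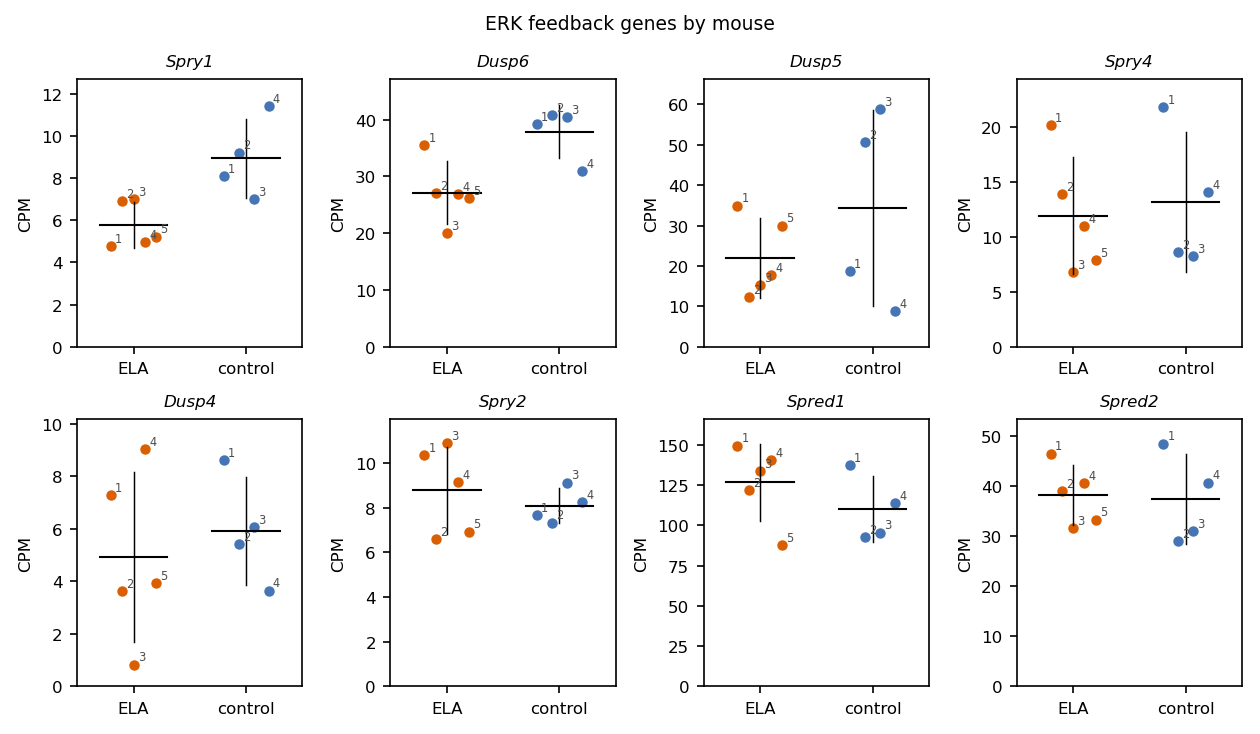
CPM of 8 ERK feedback genes in each mouse, ELA in orange and control in blue, with mouse numbers, the group mean as a line and the SD as a bar. Spry1 and Dusp6 each had 4 of 5 ELA mice below every control, whereas the ELA mice of Spry2 and Spred1 lay on both sides of the controls.

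The start regions of Spry1 and Dusp6, and of Spry2 as a relative of Spry1 whose groups overlapped, are shown because ETS factors that act behind ERK bind DNA at a GGAA core. They run from 250 bases before to 50 after the start, as RefSeq gives them on GRCm38.p6, and lie at chr3:37639697-37639996 on the plus strand (Spry1), chr10:99262981-99263280 on the plus strand (Dusp6) and chr14:105896770-105897069 on the minus strand (Spry2). Capitals mark GGAA on the printed strand, or TTCC, which is GGAA on the other strand.
Spry1: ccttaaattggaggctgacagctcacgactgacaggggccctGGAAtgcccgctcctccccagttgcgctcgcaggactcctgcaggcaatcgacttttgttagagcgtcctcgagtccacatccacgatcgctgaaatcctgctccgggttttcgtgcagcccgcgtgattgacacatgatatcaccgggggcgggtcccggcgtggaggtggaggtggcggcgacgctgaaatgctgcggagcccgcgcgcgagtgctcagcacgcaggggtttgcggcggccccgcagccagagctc
Dusp6: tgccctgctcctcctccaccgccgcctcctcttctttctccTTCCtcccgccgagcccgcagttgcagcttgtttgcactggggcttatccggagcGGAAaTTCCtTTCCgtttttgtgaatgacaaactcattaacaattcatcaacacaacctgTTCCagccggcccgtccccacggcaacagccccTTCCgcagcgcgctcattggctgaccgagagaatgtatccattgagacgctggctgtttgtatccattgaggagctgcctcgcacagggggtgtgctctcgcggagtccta
Spry2: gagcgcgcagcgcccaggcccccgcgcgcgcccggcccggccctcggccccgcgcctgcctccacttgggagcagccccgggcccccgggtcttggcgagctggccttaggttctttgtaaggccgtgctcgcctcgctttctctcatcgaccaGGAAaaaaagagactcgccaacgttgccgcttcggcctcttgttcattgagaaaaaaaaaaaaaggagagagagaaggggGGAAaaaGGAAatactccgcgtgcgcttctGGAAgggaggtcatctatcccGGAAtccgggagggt

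Spry1 had 1 such match, Dusp6 had 6 and Spry2 had 5. At least 6 matches were found in 15.7% of 32851 promoters of this length, at least 5 in 28.6% and at least 1 in 96%, with a median of 3. The longer CCGGAA, which contains GGAA, was in the Spry2 window and in 14.9% of all promoters. Of the 8 feedback genes with a sequence in the RefSeq table, GGAA was in 8 and CCGGAA in 1, while TGACGTCA, present in 1.79% of all promoters, and TGANTCA, present in 7.81%, were in none (both strands searched). A match is a description of letters and says nothing on binding.

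The other 8 feedback genes had an unadjusted p above 0.05. Spry2, close kin of Spry1, had 10.4, 6.58, 10.9, 9.15 and 6.93 CPM in ELA and 7.66, 7.33, 9.12 and 8.26 CPM in control. ELA mice lay both above and below the controls, and the log2 fold change was 0.12 (95% interval -0.31 to 0.54). Spry4, a further Sprouty protein, was 6.76 to 20.2 CPM in ELA and 8.22 to 21.8 CPM in control, with a log2 fold change of -0.15.

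Spred1, a membrane-bound partner of neurofibromin that restrains RAS, was the most abundant feedback gene and averaged 126.7 ± 23.9 CPM in ELA and 109.8 ± 20.5 CPM in control (SD, n = 5 and 4). The log2 fold changes of the Spred genes were 0.21 for Spred1, 0.03 for Spred2 (-0.037 with plain library totals) and 0.15 for Spred3. Il17rd, also called Sef, which blocks FGF signals, had a log2 fold change of 0.15 (95% interval -0.27 to 0.58).

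Dusp5, the nuclear ERK phosphatase, was 34.9, 12.3, 15.2, 17.7 and 29.98 CPM in ELA and 18.6, 50.7, 58.9 and 8.88 CPM in control. Control mice 2 and 3 were the highest of all and control mouse 4 the lowest, with the ELA mice between these. The log2 fold change of -0.64 was as large as that of Spry1, but its 95% interval was -1.79 to 0.52, with an adjusted p of 0.962 in edgeR. Without control mouse 4 it was -0.95, with an unadjusted p of 0.0414 in edgeR. With counts summed over mice that share a title number it was -0.59 (SE 0.132), with an unadjusted p of 0.00188 and an adjusted p of 0.328 in edgeR. That sum merged control mice 1 and 2, and control mice 3 and 4. The wide spread within each of these pairs is therefore not in its SE or p. Dusp4, another nuclear phosphatase of ERK, ranged from 0.832 to 9.02 CPM in ELA and 3.65 to 8.61 CPM in control.

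The 3 ETV genes, transcription factors of the ETS family that FGF signaling is known to induce, showed no separation of the groups. Etv5 had 11.2, 15.0, 13.1, 15.1 and 13.2 CPM in ELA and 18.9, 10.7, 11.5 and 17.1 CPM in control. All 5 ELA values fell within the control range, and the log2 fold change was -0.10 (95% interval -0.53 to 0.32). Etv4 ranged from 1.48 to 5.65 CPM in ELA and 2.48 to 4.75 CPM in control, a log2 fold change of -0.09. Etv1 had 2.34 to 2.90 CPM in 4 ELA mice, 18.3 CPM in ELA mouse 4 and 2.61 to 3.96 CPM in control.

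ELA mouse 4 set the value of several members. It had the highest CPM of the 9 libraries for 13 of the 37 tested members, against 18% of all genes tested, and 201 genes (1.26%) were at least 4 times as high there as in every other library. Erbb4, a neuregulin receptor abundant in neurons, was 0.438, 0.165, 0.104, 13.1 and 0.340 CPM in ELA and 0.687, 0.627, 0.1503 and 0.672 CPM in control. Apart from mouse 4, the ELA mice were within or below the control range. The fitted log2 fold change of 2.39 in edgeR (unadjusted p of 0.117) was 0.25 in limma-voom, and without ELA mouse 4 the gene did not pass the count filter.

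Etv1 changed sign, with a log2 fold change of 0.75 over all 9 mice and -0.37 without ELA mouse 4. Fgf9 did the same, with 0.46 over all mice and -0.63 without that mouse. Nrg1 had 2.37 CPM in ELA mouse 4 and 0.278 to 0.603 CPM in the other ELA mice, against 0.451 to 1.80 CPM in control, and its log2 fold change was -0.20 over all mice and -1.07 without mouse 4. Beside these, the neuron markers Zic1 and Neurod1 had 140.4 and 69.9 CPM in ELA mouse 4 and at most 0.772 and 0.317 CPM in any other library. The part of neuronal RNA in these 4 genes was not tested.

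**Figure D5:**
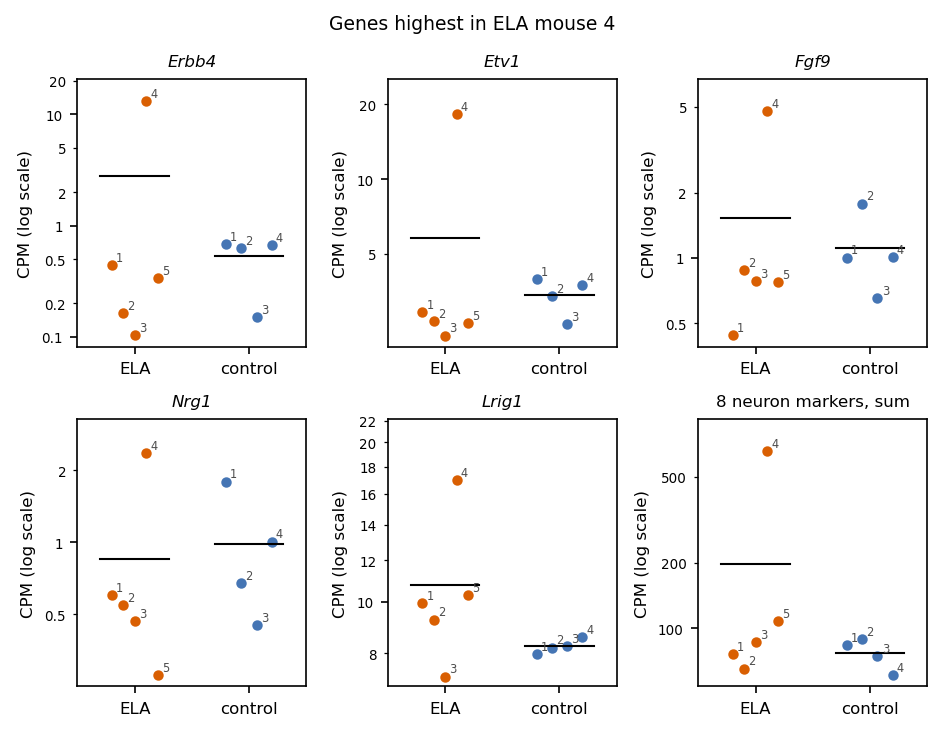
CPM on a log axis of Erbb4, Etv1, Fgf9, Nrg1 and Lrig1, and the sum of 8 neuron markers, in each mouse, ELA in orange and control in blue, with mouse numbers and the group mean as a line. The panels were chosen because ELA mouse 4 was the highest library in them, with 13.1 CPM for Erbb4 and 656 CPM for the neuron markers.

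Other genes of the pathway were read from 6 lists, likewise chosen with earlier results of these data known. None of their genes passed the adjusted p in edgeR, and the share of all genes at an unadjusted p below 0.05, against which their counts stand, was 6.44%. Of 32 core genes from RAS to ERK 31 were tested, 25 had positive log2 fold changes with a median of 0.10, against 52.6% positive over all genes, and 0 had an unadjusted p below 0.05. With plain library totals in place of TMM 20 were positive, with a median of 0.038, and the median of all genes was -0.048. The 3 with the smallest p were Mras (0.32), a RAS relative, Sos2 (0.31), which loads RAS with GTP, and Map2k2 (0.20), the kinase MEK2.

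Of 20 early genes that ERK induces in many cells, all were tested, 12 had negative log2 fold changes and the median was -0.17. At an unadjusted p below 0.05 there were 2 of the 20 (10%), both lower in ELA, as were 2.89% of all genes. Ier3, an early gene that guards ERK from dephosphorylation, had 21.6, 26.2, 13.1, 13.0 and 21.8 CPM in ELA and 53.8, 28.6, 26.8 and 26.8 CPM in control. All 5 ELA mice were below all controls, as in 1.29% of all genes, but ELA mouse 2 only just so. Ier3 had a log2 fold change of -0.83, with an adjusted p of 0.534 in edgeR. Myc, the growth regulator, had a log2 fold change of -0.63 (unadjusted p of 0.0201) and Egr2, a zinc finger factor, of -1.01 (unadjusted p of 0.0702), and in both all ELA mice were below all controls.

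Of 8 other DUSP genes 7 were tested, with a median log2 fold change of -0.17. Dusp8, a phosphatase that acts mainly on the JNK and p38 kinases, had 36.0, 37.2, 33.8, 41.3 and 32.0 CPM in ELA and 25.8, 21.2, 24.5 and 25.7 CPM in control. Every ELA mouse was above every control, as in 1.39% of all genes. The log2 fold change was 0.57 (95% interval 0.30 to 0.83), with an unadjusted p of 0.000558 and an adjusted p of 0.154 in edgeR, 0.0068 in DESeq2 and 0.187 in limma-voom, so that DESeq2 alone of the 3 tools called it. Dusp14 and Dusp10 followed with log2 fold changes of -0.24 and -0.23.

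Of 20 other FGF genes 9 were tested, with a median log2 fold change of -0.01. Fgf16 was the one with an unadjusted p below 0.05, at 0.780 to 3.24 CPM in ELA and 2.15 to 7.34 CPM in control (log2 fold change -1.12, unadjusted p of 0.0248 in edgeR). Fgf14 (0.46), an intracellular FGF, and Fgfbp3 (0.36), an FGF carrier, came next. Of 13 other EGF family genes 10 were tested, with a median of 0.06, and 0 had an unadjusted p below 0.05. The leading ones were Rhbdf2 (0.28) and Adam10 (0.17), which take part in ligand shedding, and the protease Rhbdl2 (-0.20). All 18 genes of heparan sulfate, the co-receptor of FGFs, were tested, with a median of -0.02. Gpc3, a glypican, was higher at 0.43 (unadjusted p of 0.0269) and Sdc2, a syndecan, lower at -0.28 (unadjusted p of 0.0384), followed by the sulfotransferase Hs6st1 (0.32).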

How the data were processed

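Read counts per Ensembl gene, as whole numbers, were deposited by the authors for all 9 libraries of poly(A) RNA and came from a sequencing company. Their processing notes name CASAVA, HISAT and HISAT2. Versions, counter, strandedness and build: not given in the sources used here. All 43 members had their identifier in GENCODE M21, 40 with the same coordinates, so GRCm38 is used. Another gene in the table overlapped 23 members, 21 of them on the opposite strand.

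ELA was compared with control in edgeR 4.0.16 (R 4.3.3): filterByExpr with a count minimum of 10, TMM, robust glmQLFit and glmQLFTest, calling genes at a Benjamini-Hochberg adjusted p below 0.05 over the 15909 tested. Libraries of a group differed beyond sampling noise, with a chi-square of 21.1 to 137 per degree of freedom. P-values measure the spread between these mice, whose independence is unknown. For qPCR the study drew pups, in the same numbers, from 2 litters a group, and whether the title numbers mark litters is not stated. DESeq2 1.42.0, the tool named in the paper, limma-voom 3.58.1, other scalings and filters, single mice left out and 3 treatments of the title numbers were alternatives. The fit was tested on simulated data. There were 0 unassigned sample columns. All members and, of each pathway list, the 3 genes with the smallest p are named. Ier3, Myc, Egr2 and Dusp8 are among those. Members and lists were chosen with earlier results of these data known. RefSeq promoters matched 33 members.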

Additional observations from a re-analysis of the deposited data

Results flagged for a closer look

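In 74 groups of 4 or 5 mice (37 tested members, ELA and control), the highest or lowest mouse stood far from its neighbours, by Dixon's criterion on log2 CPM with a prior count of 2, in 8. Chance gives about 1 group in 20. In ELA, mouse 4 stood high for Erbb4 (13.1 CPM, the others 0.104 to 0.438 CPM), Etv1 (18.3 CPM, the others 2.34 to 2.90 CPM) and Fgf9 (4.77 CPM, the others 0.438 to 0.877 CPM). ELA mouse 2 stood high for Btc at 1.92 CPM, the others being 0.520 to 0.712 CPM. In control, mouse 1 stood low for Fgf7 (0.951 CPM, the others 2.20 to 2.41 CPM) and high for Tgfa (11.5 CPM, the others 4.10 to 4.75 CPM). Control mouse 3 stood low for Erbb4 at 0.1503 CPM, the others being 0.627 to 0.687 CPM. Control mouse 4 stood low for Dusp6 at 30.9 CPM, the others being 39.2 to 40.7 CPM. Without control mouse 4, Dusp6 had a log2 fold change of -0.57 and an unadjusted p of 0.00703 in edgeR.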

How the results depend on the processing

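No member passed the adjusted p in edgeR or under any alternative, and the median log2 fold change of the members was -0.09 to 0.09 with single mice left out. Members lower in ELA at an unadjusted p below 0.05 (2 in edgeR) numbered 0 without ELA mice 3 to 5, 1 without control mice 1 and 2, 3 with counts summed by title number and 3 with the title number as a random effect, and 2 to 3 with single mice left out. Members higher numbered 0 in edgeR, 1 without ELA mice 1 and 2 (Erbb4) and 1 without control mice 3 and 4 (Lrig3), and 0 to 1 with single mice left out. The share of all genes at that unadjusted p was not counted in these alternatives. Changes in the members' counts therefore have no background to be read against. Over all genes, 6 were higher and 4 lower at the adjusted p in edgeR. These counts were 79 and 61 in DESeq2, 2 and 2 with plain totals, 22 and 16 with no filter, 3 and 0 with counts summed by title number, and 23 and 28 with the title number as a random effect, whose estimated correlation was negative (-0.17). A negative correlation makes the SE of the group difference smaller. For Spry1 the SE was 0.170, against 0.203 in limma-voom without the random effect. This alternative therefore does not allow for likeness among mice that share a title number. The counts over all genes were 4 and 0 without ELA mice 3 to 5, 44 and 15 without ELA mice 1 and 2, 0 and 0 without control mice 1 and 2, and 0 and 1 without control mice 3 and 4. With single mice left out they were 0 to 15 higher and 0 to 8 lower, and the highest counts came without ELA mouse 2. The cause was not tested.

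Single genes that changed sign, given as log2 fold changes, had small values in most cases. In limma-voom these were Fgf7 0.037, Fgf9 -0.00208 and Erbb3 0.023, with the random effect Fgf7 0.032 and Erbb3 0.016, and with plain totals Spred2 -0.037. Without ELA mice 1 and 2 they were Hbegf 0.049, Nrg1 0.076, Egfr -0.058, Spred2 -0.083 and Etv4 0.21. Without ELA mice 3 to 5 they were Fgf7 0.068, Fgf9 -0.75, Fgf11 -0.00733, Fgf13 0.051, Tgfa 0.16, Areg 0.26, Btc 0.15, Erbb3 0.11, Erbb4 -0.82, Spry4 0.36, Spred3 -0.46, Etv1 -0.29, Fgfbp3 -0.10 and Dusp14 0.041. Without control mice 1 and 2 they were Fgf13 0.011, Egf -0.081, Tgfa 0.15, Nrg1 0.22, Spry4 0.094, Spred3 -0.21 and Dusp4 0.018. Without control mice 3 and 4 they were Fgf7 0.19, Btc 0.24, Erbb3 0.23, Spred2 -0.033 and Etv4 0.37.

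With single mice left out, values that changed sign ranged over -0.32 to 0.12 (Fgfr3), -0.29 to 0.018 (Hbegf), -0.044 to 0.21 (Egfr), -0.071 to 0.18 (Spred2), -0.35 to 0.10 (Etv4), -0.20 to 0.24 (Erbb3), -0.25 to 0.095 (Fgf7), -0.24 to 0.17 (Fgf13), -0.41 to 0.21 (Spry4), -0.60 to 0.013 (Dusp4), -0.63 to 0.78 (Fgf9), -0.23 to 0.50 (Spred3), -0.37 to 0.96 (Etv1), -1.07 to 0.26 (Nrg1), -0.44 to 0.20 (Tgfa), -0.23 to 0.046 (Etv5) and -0.82 to 0.059 (Btc). Of the values of single genes under all alternatives, 1181 kept direction with no change of call at the threshold, 72 changed sign and 1, Dusp8 in DESeq2, newly passed it. The 1181 include Fgf9, Erbb4 and Etv1 in DESeq2, which kept direction but had no p and were taken as not called. Spry1 and Dusp6 kept their sign throughout. Erbb4 gave no value without ELA mouse 4 or at a count minimum of 30, since it did not pass the filter. Areg gave a value in 19 of the 23 alternatives, among them 7 of the 9 fits with single mice left out. Btc, Egf, Fgf9 and Nrg1 gave one in 22 of the 23. No paired analysis was possible because the labels give ELA and control no shared replicate numbers. Low counts limit Fgf3, Fgf10, Fgf20, Fgfr4, Fgfbp1 and Ereg, and also Areg, which was tested with 0 to 15 counts in a library.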
